A study of Homo sapiens with 12 samples.

Results

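The nectins and the poliovirus receptor form a small family of cell surface proteins with immunoglobulin-like domains, and all 5 of its genes, NECTIN1, NECTIN2, NECTIN3, NECTIN4 and PVR, were found by symbol among the 39368 genes counted in each library. The family was chosen by the DOX response of NECTIN4, whose RNA moved in opposite directions in 2 head and neck squamous cell carcinoma (HNSCC) lines when MUC1 was silenced, so the NECTIN4 values are described here and not tested, and the other 4 genes are its tested relatives. Both lines, CAL27 and HSC3, are established and HPV-negative, and both had been transduced with tet-MUC1shRNA, a vector that expresses a short hairpin RNA against MUC1 when doxycycline (DOX) is present, and selected in puromycin. CAL27/tet-MUC1shRNA cells, grown in DMEM, and HSC3/tet-MUC1shRNA cells, grown in MEM, were each treated for 7 days with vehicle (0.1% DMSO) or with 500 ng/mL DOX, and 3 libraries of poly(A) RNA were sequenced from each of the 4 groups. Every group therefore carries the vector, and libraries from DOX-treated cells with a control hairpin were not analysed here, so that loss of MUC1 cannot be told apart from what DOX or the hairpin may do besides. A difference between the lines cannot be told apart from the medium or the sequencing of each line. These are bulk measurements, in which fewer cells expressing a gene and less RNA per cell cannot be told apart.

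Nectins join neighbouring cells. Their extracellular domains bind a nectin on the same or the next cell, and their cytoplasmic tails bind afadin (AFDN), which links them to actin at the adherens junction beside the cadherins. NECTIN1 is an entry receptor of herpes simplex virus, NECTIN3 is a strong binding partner of NECTIN1 on the opposing cell, and NECTIN4 is the epithelial receptor of measles virus and the target of an antibody-drug conjugate used in carcinoma. NECTIN2 and PVR (CD155) are read by lymphocytes: both bind the activating receptor DNAM-1 (CD226) and the inhibitory receptor TIGIT, NECTIN2 also binds PVRIG and PVR also binds CD96.

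By the GENCODE v44 annotation of GRCh38, NECTIN1 lies on the minus strand of chromosome 11 (119623408 to 119729200), NECTIN3 on the plus strand of chromosome 3 (111070071 to 111275563) and NECTIN4 on the minus strand of chromosome 1 (161070998 to 161089558). NECTIN2 (44846175 to 44889223) and PVR (44643798 to 44666162) are both on the plus strand of chromosome 19. Antisense genes cover 1.89% of the exon bases of NECTIN1 and 3.42% of those of NECTIN2, and reads there may not be told apart, since the use of strand in counting is not given in the sources used here. Promoter sequences from RefSeq (GRCh38.p14) matched 4 of the 5 genes, all but NECTIN1. Those of NECTIN4 and NECTIN3 are shown because these are the members whose RNA was far lower in HSC3 than in CAL27 cells. Each is the 250 bases before the RefSeq start, read 5′ to 3′ on the strand of the gene, and neither holds any base of a GENCODE exon. The NECTIN3 window lies inside the GENCODE span of its gene, which begins further upstream, at 111070071. Capitals mark the motif matches found on either strand, the GC box (GGGCGG) and, in NECTIN4, an E-box of SNAI and ZEB factors (CACCTG).
NECTIN4 promoter, chr1:161089559-161089808, minus strand: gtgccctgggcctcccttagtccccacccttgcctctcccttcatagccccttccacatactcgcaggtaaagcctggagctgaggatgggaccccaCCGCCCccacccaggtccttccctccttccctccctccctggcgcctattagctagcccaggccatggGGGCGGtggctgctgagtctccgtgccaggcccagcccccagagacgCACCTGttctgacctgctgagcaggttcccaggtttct
NECTIN3 promoter, chr3:111071566-111071815, plus strand: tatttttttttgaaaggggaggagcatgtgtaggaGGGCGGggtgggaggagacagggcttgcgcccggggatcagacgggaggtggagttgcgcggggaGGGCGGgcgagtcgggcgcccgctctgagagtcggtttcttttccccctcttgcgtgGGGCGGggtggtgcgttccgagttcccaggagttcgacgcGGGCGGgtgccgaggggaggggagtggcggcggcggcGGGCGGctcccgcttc
The NECTIN4 promoter held 2 GC boxes, beginning 153 and 85 bases before the start, and 1 E-box beginning 38 bases before it. In NECTIN3 there were 5 GC boxes and no E-box. Of 35116 RefSeq promoters of the same length, 42.6% held a GC box and 17.5% this E-box. NECTIN2 had 3 GC boxes and PVR none, and PVR had 1 E-box whose last letter is the first of 1 TEAD motif (GGAATG, in 11.9% of promoters). The windows of NECTIN2 and PVR, not shown, hold 122 and 112 bases of GENCODE exons. The letters of the STAT motif GAS (TTCNNNGAA, in 6.57%), of the ISRE core (3.02%) and of AP-1 (TGANTCA, 6.57%) were in none of the 4 windows. GC content was 65.2% in NECTIN4, 69.2% in NECTIN3, 67.6% in NECTIN2 and 70% in PVR, against a median of 58% over all promoters. These matches describe letters and were not tested against the RNA values.

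Library totals ran from 89730914 to 169065103 counts. Several counts stood for 1 molecule, by estimate 2.45 to 3.33 in CAL27 libraries, 4.18 to 7.43 in HSC3 vehicle libraries and 8.93 to 17.2 in HSC3 DOX libraries. HSC3 DOX replicate 1, at 17.2, stood apart from the other replicates of its group, and the DOX results of the 5 genes and the list counts in HSC3 cells are also given without it. The epithelial markers KRT5, KRT14, KRT6A, KRT17, TP63, EPCAM, DSG3 and PERP, listed below as squamous markers, were all counted in every group (8 of 8). Their summed level was 6576 to 6917 counts per 1e6 counts (CPM) in CAL27 vehicle, 3176 to 3422 in CAL27 DOX, 6517 to 7193 in HSC3 vehicle and 3345 to 3623 in HSC3 DOX libraries. The summed level of lymphocyte markers stayed at or below 0.609 CPM in every library, with CD2 at 0 throughout. Summed fibroblast markers reached at most 13.4 CPM, macrophage markers 7.59 CPM and endothelial markers 15.3 CPM, all in CAL27 libraries. In CAL27 vehicle libraries the endothelial sum was mostly CDH5 (mean 14.6 CPM), with VWF at 0.491, PECAM1 at 0.0365 and KDR at 0.00483 CPM. The fibroblast sum there was mostly COL1A1 (8.4 CPM), followed by COL1A2 (2.24 CPM) and LUM (2.09 CPM). CPM here means that count scaled by edgeR's TMM factors over all 12 libraries, and a gene counted as called where its edgeR p, adjusted by Benjamini-Hochberg across every gene in the fit, was under 0.05.

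MUC1 was measured first, as the target of the hairpin. It stood at 58.4, 53.1 and 54.3 CPM in the CAL27 vehicle libraries and 2.92, 2.76 and 3.25 CPM with DOX, a log2 fold change of -4.21 (SE 0.0666, edgeR adjusted p = 1.6e-19). HSC3 cells had 1.66, 1.97 and 1.64 CPM with vehicle and 0.31, 0.267 and 0.132 CPM with DOX, a log2 fold change of -2.88 (SE 0.376, edgeR adjusted p = 2.0e-04), or -3.12 without HSC3 DOX replicate 1 (edgeR adjusted p = 2.8e-06). Behind the HSC3 DOX values stood 16 to 46 counts, by estimate 1.42 to 4.03 molecules a library, so the size of the knockdown there is poorly fixed. MUC1 RNA was thus lower with DOX in both lines, as labelled, and CAL27 cells had more of it with DOX than HSC3 cells had with vehicle.

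NECTIN4 had its highest level in CAL27 cells with vehicle, at 15, 14.1 and 15 CPM. With DOX the CAL27 libraries held 9.28, 8.82 and 7.1 CPM. HSC3 cells began far lower, at 2.4, 2.21 and 2.36 CPM with vehicle, and stood at 8.47, 5.95 and 6.13 CPM with DOX. Vehicle and DOX libraries did not overlap in either line, as for 49.2% of the 20694 genes tested over all libraries in CAL27 and 38.2% in HSC3 cells. The log2 fold change of DOX over vehicle was -0.81 (SE 0.0842, n = 3 and 3) in CAL27 and 1.55 (SE 0.179, n = 3 and 3) in HSC3 cells, or 1.76-fold lower and 2.93-fold higher, and these are the values that chose the gene. From lines 6.31-fold apart with vehicle, NECTIN4 came to mean levels of 8.4 ± 1.15 CPM (SD, n = 3) in CAL27 and 6.85 ± 1.41 CPM (SD, n = 3) in HSC3 cells with DOX. Those ranges overlapped, while 67.7% of genes did not overlap there, and these too are values that chose the gene. HSC3 DOX replicate 1 was the highest of its group, and without it the log2 fold change in HSC3 cells was 1.38. The overlap between the lines rested on that library alone. The other HSC3 DOX libraries, at 5.95 and 6.13 CPM, lay below every CAL27 DOX library. Behind the HSC3 values stood 182 to 282 counts with vehicle and 742 to 1257 with DOX, or by estimate 38 to 43.5 and 65.7 to 89.8 molecules. The antisense gene NECTIN4-AS1 had at most 39 counts in any library and shares no exon bases with NECTIN4.

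**Figure D1:**
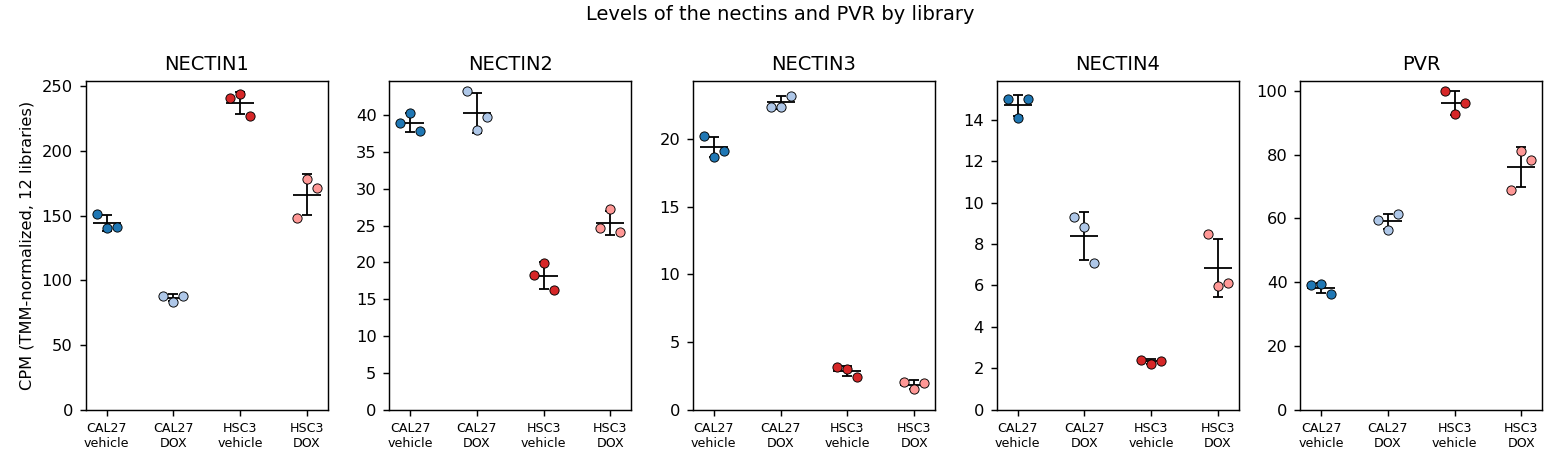
Levels of the 5 genes in each of the 12 libraries, in TMM-scaled CPM on linear axes from 0; points are libraries, and lines with bars are group means ± SD (n = 3). NECTIN4 libraries separate with DOX in opposite directions in the 2 lines, the pattern for which the gene was chosen. Of all genes, 49.2% separate in CAL27 and 38.2% in HSC3 cells. NECTIN4 was not tested. The mean of NECTIN4 goes from 14.7 to 8.4 CPM in CAL27 and from 2.33 to 6.85 CPM in HSC3 cells.

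The relatives also responded to DOX, and 3 of the 4 were called in CAL27 cells, beside 44.5% of all 19239 genes tested. In HSC3 cells 3 of the 4 were called, beside 28.4% of 18021 genes. Each called change was smaller than 2-fold, a size passed by 6.42% of genes in CAL27 and 5.98% in HSC3 cells. Of all genes, 22.6% were called higher and 21.8% lower in CAL27 cells. HSC3 cells had 13% called higher and 15.4% lower. NECTIN1 fell in both lines and PVR went opposite ways, whereas NECTIN2 was called only in HSC3 and NECTIN3 only in CAL27 cells, a contrast that the interaction test below addresses.

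NECTIN1, the herpesvirus receptor, was at 151, 140 and 141 CPM in CAL27 vehicle libraries and 88.2, 83.5 and 87.7 CPM with DOX. All DOX libraries lay below all vehicle libraries. It fell 1.67-fold (log2 fold change -0.74, SE 0.04, 95% interval -0.82 to -0.66, edgeR adjusted p = 8.5e-12). HSC3 cells had 241, 244 and 227 CPM with vehicle and 148, 178 and 171 CPM with DOX, again without overlap. The fall there was 1.44-fold (log2 fold change -0.52, SE 0.0777, 95% interval -0.69 to -0.35, edgeR adjusted p = 4.9e-04). Without HSC3 DOX replicate 1, which was the lowest, the log2 fold change was -0.44 (edgeR adjusted p = 7.2e-07). Of the 17164 genes tested in both lines, 8.62% were called lower in both.

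PVR, the ligand of DNAM-1, TIGIT and CD96, moved in the reverse sense to NECTIN4 in each line. CAL27 cells had 39, 39.3 and 36.4 CPM with vehicle and 59.6, 56.5 and 61.3 CPM with DOX. The groups were well separated, and PVR rose 1.54-fold (log2 fold change 0.63, SE 0.0466, 95% interval 0.53 to 0.72, edgeR adjusted p = 1.1e-09). HSC3 cells had 99.9, 92.6 and 96.1 CPM with vehicle and 69, 81.2 and 78.2 CPM with DOX. Here every DOX library was lower, and PVR fell 1.27-fold (log2 fold change -0.34, SE 0.0789, 95% interval -0.52 to -0.17, edgeR adjusted p = 0.0076). Leaving out HSC3 DOX replicate 1, the lowest, gave -0.27 (edgeR adjusted p = 8.4e-04), and leaving out HSC3 vehicle replicate 1, the highest, gave -0.31 and ended the call (edgeR adjusted p = 0.0504). Genes called higher in CAL27 and lower in HSC3 cells, as PVR was, made up 2.37% of those tested in both lines, the reverse pattern 1.19% and both together 3.56%. PVR shares 19.45% of its annotated exon bases with a gene model of the same strand (ENSG00000279095), which was not analysed here, so its reads there are uncertain.

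NECTIN2, which shares DNAM-1 and TIGIT with PVR, stood at 38.9, 40.3 and 37.8 CPM in CAL27 vehicle libraries and 43.3, 38 and 39.7 CPM with DOX. Those groups overlapped, with a log2 fold change of 0.046 (SE 0.0506, 95% interval -0.06 to 0.15, edgeR adjusted p = 0.51). In HSC3 cells it stood at 18.3, 19.9 and 16.3 CPM with vehicle and 24.7, 27.3 and 24.2 CPM with DOX. All DOX libraries were above all vehicle libraries, and NECTIN2 rose 1.4-fold (log2 fold change 0.48, SE 0.103, 95% interval 0.26 to 0.71, edgeR adjusted p = 0.0048). The value without HSC3 DOX replicate 1 was 0.51 (edgeR adjusted p = 3.3e-04).

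NECTIN3, the trans partner of NECTIN1, was at 20.2, 18.7 and 19.1 CPM in CAL27 vehicle libraries and 22.4, 22.4 and 23.2 CPM with DOX. It rose 1.17-fold without overlap (log2 fold change 0.23, SE 0.0543, 95% interval 0.11 to 0.34, edgeR adjusted p = 0.0018), but was not called when all 12 libraries shared 1 fit (edgeR adjusted p = 0.17). HSC3 cells had only 3.16, 2.99 and 2.41 CPM with vehicle and 2.08, 1.5 and 2 CPM with DOX. The groups did not overlap, yet the log2 fold change of -0.62 (SE 0.217, 95% interval -1.10 to -0.14) missed the threshold (edgeR adjusted p = 0.054). It passed without HSC3 DOX replicate 1, at -0.70 (edgeR adjusted p = 0.023). By estimate 38.8 to 58.8 molecules stood behind the vehicle and 17.9 to 22.6 behind the DOX values, which limits what can be shown for this gene.

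**Figure D2:**
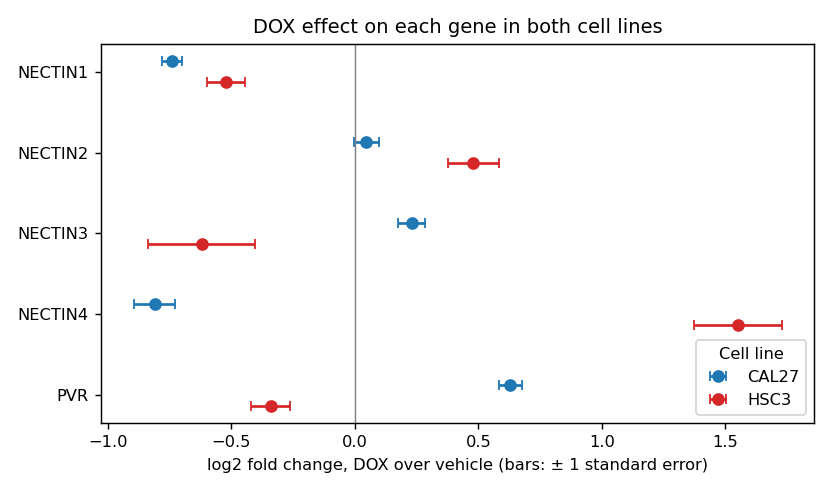
Log2 fold change of DOX over vehicle for the 5 genes in CAL27 and HSC3 cells, with bars of 1 standard error (3 libraries against 3). NECTIN1 lies below 0 in both lines, at -0.74 and -0.52, while NECTIN4 (-0.81 and 1.55) and PVR (0.63 and -0.34) lie on opposite sides of 0 in the 2 lines.

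The difference in DOX response between the lines was tested as the interaction of cell line and DOX, HSC3 minus CAL27, and called for 3 of the 4 relatives beside 20.6% of 20694 genes (8.25% with a higher and 12.3% with a lower response in HSC3 cells, and 5.21% past 2-fold). PVR differed most among the tested genes, by -0.97 on the log2 scale (SE 0.0925, 95% interval -1.16 to -0.77, edgeR adjusted p = 3.7e-06), and by -0.88 without HSC3 DOX replicate 1 (edgeR adjusted p = 5.9e-08). NECTIN3 differed by -0.84 (SE 0.171, edgeR adjusted p = 0.0022), and by -0.92 without that library (edgeR adjusted p = 2.1e-04). For NECTIN2 the difference was 0.44 (SE 0.115, edgeR adjusted p = 0.013), and 0.48 without it (edgeR adjusted p = 0.0022). The response of NECTIN1 differed by 0.22 (SE 0.0909, 95% interval 0.025 to 0.41) and was not called (edgeR adjusted p = 0.11). Without HSC3 DOX replicate 1 that difference was 0.32 and was called (edgeR adjusted p = 8.9e-04), and it was called under 3 of 19 alternatives in all. For NECTIN4 the corresponding value was 2.37 (SE 0.199), and 2.20 without that library, given with no test.

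At baseline all 4 relatives differed between the lines, beside 62.9% of 20694 genes (30.6% higher and 32.3% lower in HSC3 cells, and 31.9% past 2-fold), and the family split by direction. NECTIN1 and PVR were higher in HSC3 cells, by log2 fold changes of 0.72 (SE 0.0645, edgeR adjusted p = 8.3e-08) and 1.33 (SE 0.0664, edgeR adjusted p = 7.9e-11). NECTIN2 and NECTIN3 were lower there, by -1.10 (SE 0.0822, edgeR adjusted p = 9.0e-09) and -2.77 (SE 0.125, edgeR adjusted p = 2.3e-11). NECTIN3, at 6.8-fold, had the widest gap of the tested genes, and NECTIN4, described only, was lower in HSC3 cells by a like amount (log2 fold change -2.66, SE 0.148). Scaled by library totals, the NECTIN1 difference was 0.45 (edgeR adjusted p = 3.6e-05). Vehicle libraries of the 2 lines did not overlap for any of the 5 genes, nor for 74.3% of all genes.

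With DOX all 4 relatives again differed between the lines, beside 63.8% of genes (29.9% higher and 33.9% lower in HSC3 cells, and 33% past 2-fold), and each kept its direction. NECTIN1 was higher in HSC3 cells by 0.94 (SE 0.0649, edgeR adjusted p = 3.7e-09) and NECTIN2 lower by a log2 fold change of -0.67 (SE 0.0809, edgeR adjusted p = 2.6e-06). The gap in NECTIN3 was then 12.2-fold, with a log2 fold change of -3.61 (SE 0.129, edgeR adjusted p = 1.6e-12). PVR was 1.29-fold higher in HSC3 cells (log2 fold change 0.36, SE 0.0653, edgeR adjusted p = 1.5e-04), against 2.52-fold with vehicle. Scaled by library totals, the PVR value with DOX was 0.084 and not called (edgeR adjusted p = 0.30). That scaling moved the median of all genes by -0.27 with vehicle and by -0.28 with DOX, and the share of called genes that were higher in HSC3 cells from 48.7% to 35.7% and from 46.9% to 34.4%. Without HSC3 DOX replicate 1 the differences were 1.03 for NECTIN1, -0.63 for NECTIN2, -3.69 for NECTIN3 and 0.44 for PVR, all still called. NECTIN4 was apart by -0.29 (SE 0.137), and by -0.46 without that library. The vehicle and DOX comparisons between lines use separate libraries but share the lines.

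Levels of different genes were set side by side per kilobase of exon (RPKM on TMM-scaled counts), and as each gene's share of the summed RPKM of the 5, which does not depend on the scaling between libraries. NECTIN1 had the highest RPKM in every group. In CAL27 vehicle libraries NECTIN1 was at 18.5 ± 0.778 RPKM (SD, n = 3), followed by NECTIN2 (10.4 ± 0.344), NECTIN4 (4.25 ± 0.148), PVR (3.67 ± 0.154) and NECTIN3 (2.51 ± 0.0989), and no neighbours in that order overlapped. With DOX the order in CAL27 cells was NECTIN1 (11.1 ± 0.331 RPKM, n = 3), NECTIN2 (10.8 ± 0.727), PVR (5.67 ± 0.233), NECTIN3 (2.94 ± 0.0601) and NECTIN4 (2.43 ± 0.333), where the first pair overlapped. NECTIN4 thus went from the middle of the family to its lowest place.

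HSC3 vehicle libraries were more uneven, with NECTIN1 at 30.4 ± 1.12 RPKM (SD, n = 3), PVR at 9.23 ± 0.352, NECTIN2 at 4.85 ± 0.487, NECTIN4 at 0.673 ± 0.0286 and NECTIN3 at 0.37 ± 0.0506. The order was the same with DOX, at 21.2 ± 2.02, 7.3 ± 0.609, 6.8 ± 0.444, 1.98 ± 0.407 and 0.241 ± 0.0407 RPKM (SD, n = 3), but PVR and NECTIN2 then overlapped. Summed over the family, the level was 39.3 ± 1.03 RPKM in CAL27 vehicle, 32.9 ± 1.23 in CAL27 DOX, 45.5 ± 1.59 in HSC3 vehicle and 37.5 ± 2.48 in HSC3 DOX libraries (SD, n = 3 each). The sum was lower with DOX in both lines, with no overlap of the libraries. Measured against the longest annotated transcript in place of all exons, PVR stood above NECTIN4 in CAL27 vehicle libraries and NECTIN2 just above NECTIN1, with overlap, in CAL27 DOX libraries.

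By share, NECTIN1 made up 46% to 47.8% of the family in CAL27 vehicle and 33% to 34.2% in CAL27 DOX libraries, 66.4% to 67.2% in HSC3 vehicle and 54.3% to 57.7% in HSC3 DOX libraries. The loss of NECTIN1 share with DOX was met in CAL27 cells by NECTIN2 (25.7% to 27.6% with vehicle, 32% to 33.9% with DOX) and PVR (9.08% to 9.66% and 16.7% to 17.9%). In HSC3 cells NECTIN2 went from 9.97% to 11.5% with vehicle to 17.1% to 19% with DOX, while the PVR shares overlapped (19.1% to 21.1% and 19% to 19.8%). NECTIN4 took 10.4% to 11.3% and then 6.26% to 8.04% in CAL27 cells, and 1.38% to 1.56% and then 4.33% to 7.03% in HSC3 cells. Shares sum to 100% within a library, so a fall of NECTIN1 by itself raises the others.

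**Figure D3:**
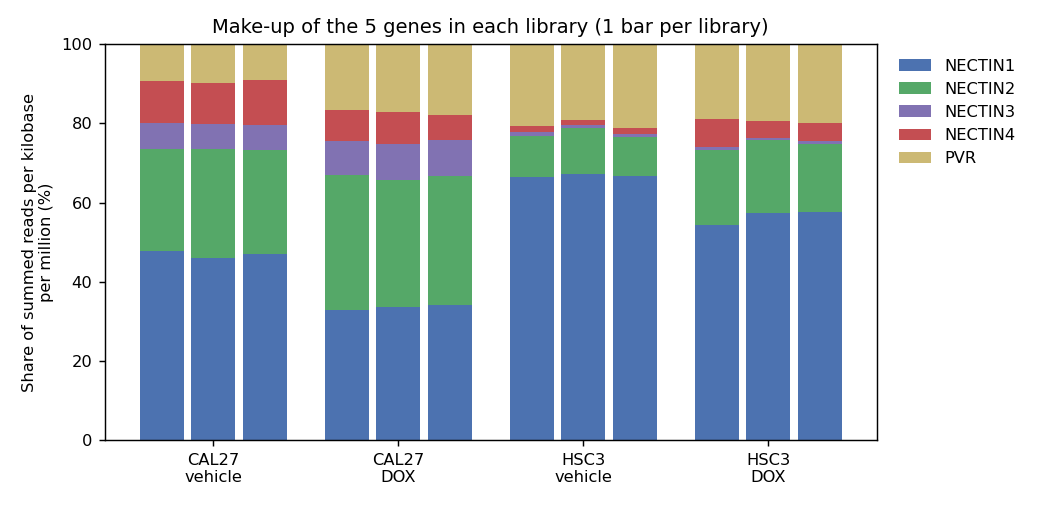
Share of each gene in the summed RPKM of the 5 genes, in percent, with 1 stacked bar for each of the 12 libraries. NECTIN1 takes a mean share from 33.7% in CAL27 DOX to 66.7% in HSC3 vehicle libraries, and the mean share of NECTIN4 goes from 10.8% to 7.38% in CAL27 and from 1.48% to 5.35% in HSC3 cells.

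Of the nectin-like adhesion molecules CADM1 to CADM4, only CADM1 and CADM4 passed the count filter. CADM1 had 0 counts in every CAL27 library and 27.6 ± 2.09 CPM (SD, n = 3) in HSC3 vehicle libraries, so no fold is given. In HSC3 cells it fell with DOX to 15.1 ± 1.83 CPM (log2 fold change -0.87, SE 0.11, edgeR adjusted p = 1.6e-04). CADM4 fell in CAL27 cells from 6.75 ± 0.0435 to 3.79 ± 0.537 CPM (log2 fold change -0.83, SE 0.103, edgeR adjusted p = 1.3e-06) and had a log2 fold change of -0.10 in HSC3 cells (SE 0.391, edgeR adjusted p = 0.89). Its difference between the lines was not called (0.75, edgeR adjusted p = 0.097).

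Among 26 genes of afadin and the adherens junction, 10 rose, 8 fell and 8 were not called in CAL27 cells (median log2 fold change 0.07, against -0.0052 over all genes). In HSC3 cells 6 rose, 7 fell and 13 were not called (median 0.059, against -0.0097), and without HSC3 DOX replicate 1 the counts were 8, 8 and 10. Of all genes tested, 44.5% were called in CAL27 and 28.4% in HSC3 cells. AFDN itself had log2 fold changes of 0.12 in CAL27 (edgeR adjusted p = 0.013) and 0.13 in HSC3 cells (edgeR adjusted p = 0.14), and E-cadherin (CDH1) of 0.033 and -0.019, neither called. CTNND1, the p120 catenin that holds cadherins at the membrane, had log2 fold changes of -0.20 in CAL27 and 0.94 in HSC3 cells. Both changes were called, and their difference was 1.14 (edgeR adjusted p = 6.5e-06). P-cadherin (CDH3, -0.39 and -0.66) and the GTPase RAC1 (-0.41 and -0.65) fell in both lines, and the scaffold TJP1 (0.39 and 0.37) and vinculin (VCL, 0.38 and 0.32) rose in both. Plakoglobin (JUP) fell in CAL27 cells (-0.48) and was not called in HSC3 cells (0.016).

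Nectins also bind growth factor receptors and other proteins on the same cell. Of 8 such partners listed, 7 were tested in CAL27 cells, where 1 rose and 5 fell (median -0.30), and 5 in HSC3 cells, where 3 rose and 2 fell (median 0.61), with the same counts without HSC3 DOX replicate 1. The shares of all genes called were 44.5% in CAL27 and 28.4% in HSC3 cells, with medians of -0.0052 and -0.0097. ERBB3, a HER family receptor, fell in CAL27 cells (log2 fold change -0.30) and rose in HSC3 cells (0.61), with a difference of 0.91 (edgeR adjusted p = 9.3e-07). ERBB2, its signalling partner, fell in both (-0.32 and -0.50), as did the integrin subunit ITGAV (-0.29 and -0.87). FGFR1 rose in both lines (1.18 and 0.76), in CAL27 cells from a mean of only 0.731 to 1.67 CPM. PRLR (-1.54) and PDGFRB (-1.02) fell in CAL27 cells and did not pass the count filter in HSC3 cells. Their mean levels in CAL27 cells were low, 1.05 and 0.36 CPM for PRLR and 0.881 and 0.43 CPM for PDGFRB with vehicle and DOX. The phosphatase PTPRM rose in HSC3 cells (1.07) and was not called in CAL27 cells (0.22).

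PVR and NECTIN2 are among several surface ligands that natural killer cells read, and 9 others were listed, most of them ligands of NKG2D. In CAL27 cells 4 rose and 5 fell (median -0.48), and in HSC3 cells 1 rose, 5 fell and 3 were not called (median -1.01), with the same counts without HSC3 DOX replicate 1. Among all genes 44.5% were called in CAL27 and 28.4% in HSC3 cells, with medians of -0.0052 and -0.0097. The genes that fell did so in both lines, ULBP2 with log2 fold changes of -0.67 in CAL27 and -1.75 in HSC3 cells, RAET1E with -0.73 and -2.08, RAET1L with -0.90 and -2.41, ULBP1 with -0.88 and -1.01 and RAET1G with -0.48 and -3.83. These 5 genes are close paralogs whose reads could be split. In HSC3 DOX libraries RAET1G had only 8 to 40 counts, RAET1L 19 to 24 and RAET1E 59 to 114. By estimate 8.93 to 17.2 counts stood for 1 molecule there, so the sizes of these falls are poorly fixed. MICB rose in both lines (0.33 and 0.69). MICA (0.48 and 0.28) and NCR3LG1, the ligand of NKp30 (0.62 and -0.14), rose in CAL27 cells and were not called in HSC3 cells. The difference between the lines was called for NCR3LG1 (-0.76, edgeR adjusted p = 8.4e-04) but not for MICA (-0.20, edgeR adjusted p = 0.66). Of the receptors on the lymphocyte side, TIGIT, CD226, CD96, PVRIG and CRTAM, the summed level was at most 3.42 CPM in any library. PVRIG fell in CAL27 cells (log2 fold change -1.16) and CD96 rose in HSC3 cells (0.86), from mean levels of 1.68 and 1.27 CPM. The difference between the lines was called neither for PVRIG (1.69, edgeR adjusted p = 0.074) nor for CD96 (0.73, edgeR adjusted p = 0.14).

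Of 8 enzymes that release or cut such ectodomains, 1 rose, 3 fell and 4 were not called in CAL27 cells, and 1 rose, 1 fell and 6 were not called in HSC3 cells (1, 2 and 5 without HSC3 DOX replicate 1). ADAM9, a membrane metalloproteinase, rose in both lines (0.24 and 0.18). The squamous markers moved more. In CAL27 cells 7 of 8 fell and 1 rose (median -1.03), and in HSC3 cells 6 fell, 1 rose and 1 was not called (median -0.87), or 7 fell and 1 rose without HSC3 DOX replicate 1. Beside both lists stand 44.5% of all genes called in CAL27 and 28.4% in HSC3 cells, with medians of -0.0052 and -0.0097. KRT14 had log2 fold changes of -2.90 in CAL27 and -1.88 in HSC3 cells, TP63 of -1.01 and -1.21, and EPCAM, which rose, of 0.40 and 0.87. Their part in the changes of the nectins was not tested.

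**Figure D4:**
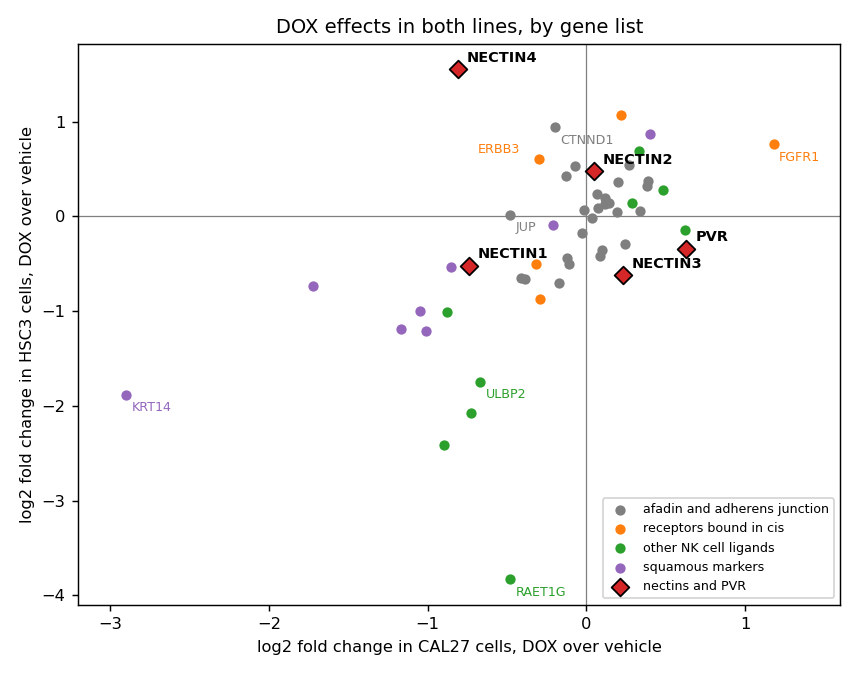
Log2 fold change of DOX over vehicle in CAL27 cells (horizontal) against HSC3 cells (vertical) for the 5 genes and the genes of 4 lists that were tested in both lines; points are genes. NECTIN4 lies at -0.81 and 1.55 and PVR at 0.63 and -0.34, on either side of the origin, with CTNND1 (-0.20 and 0.94) and ERBB3 (-0.30 and 0.61) on the same side as NECTIN4.

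The genes most like each member over the 12 libraries were taken by the smallest root mean square (RMS) difference of log2 CPM values, each gene centred on its own mean, among genes whose log2 CPM averaged 3 or more. NECTIN1 was closest to SEMA4A (RMS 0.0658), PLD2 (0.093) and TMCC3 (0.107). CNN2 (0.0992) was among the 3 closest to NECTIN2, and PVR was closest to SERINC2 (0.0895), AKAP12 (0.104) and DCBLD2 (0.114). The matches of NECTIN3, which were IDH2 (0.222), SORD (0.262) and CAT (0.28), followed the gap between the lines but not the DOX response in CAL27 cells, where their mean levels were lower with DOX. NECTIN4 had the loosest matches, BIRC3 (0.311), CTNND1 (0.344) and IKZF2 (0.376). The RMS is not scaled to the range of a gene, so it is larger for genes that vary more. NECTIN4 and NECTIN3 themselves averaged 2.73 and 2.80 log2 CPM, under the cut of 3 set for their matches. BIRC3, an inhibitor of apoptosis, had mean levels of 51.4 and 25.5 CPM in CAL27 vehicle and DOX libraries and 12.4 and 23.7 CPM in HSC3 vehicle and DOX libraries. IKZF2, a zinc finger transcription factor, had 102, 54.9, 14.9 and 25.3 CPM in the same groups. Each of the 3 was thus lower with DOX in CAL27 and higher with DOX in HSC3 cells, as the choice by likeness to NECTIN4 favours, and no test was made.

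**Figure D5:**
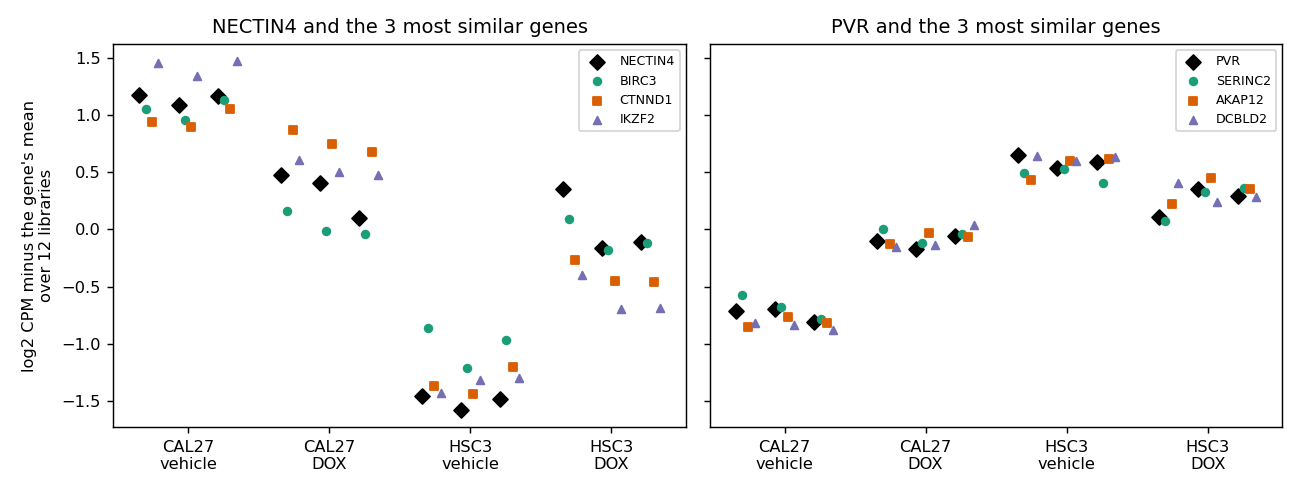
Log2 CPM minus the gene's own mean over the 12 libraries for NECTIN4 and PVR, each with the 3 genes most like it; points are libraries. The NECTIN4 panel scatters more around its member (RMS 0.311 to 0.376) than the PVR panel (RMS 0.0895 to 0.114). The RMS is not scaled to range, and NECTIN4 runs from -1.58 to 1.18 and PVR from -0.81 to 0.65.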

How the data were processed

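RNA from 12 cultures was measured by RNA-seq, with the TruSeq Stranded mRNA kit. Per the labels, the authors aligned reads with STAR 2.7.9a to GRCh38 and the submitters' processing notes also name FastQC 0.11.9, Subread 2.0.1 and featureCounts. The strand setting, the treatment of duplicates and the annotation release are not given in the sources used here. The authors deposited raw counts per gene symbol, without normalization, in 1 table for each line. In the CAL27 table the DOX columns are numbered apart from the samples and were mapped to their group only. Labels say that cells were cultured in triplicate, and p-values measure only the spread between these libraries. No pair of libraries held the same values.

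Counts were fitted in R 4.3.3 with edgeR 4.0.16 (filterByExpr at a minimum count of 10 and minimum total of 15, TMM, robust quasi-likelihood test, two-sided). Each line was fitted alone for DOX against vehicle, and all 12 libraries together for the lines and the interaction. All 5 genes passed the filter in every fit. The estimate of counts per molecule uses the share of zeros among genes whose other replicates average 8 to 16 counts, and ran somewhat high on simulated libraries. Exon unions, transcripts and overlaps come from GENCODE v44, in which 38934 of the 39368 symbols were found. The fits were tested on simulated counts. Members, lists and the rule for named genes (at most 6 called genes of a list with the largest log2 fold changes in a DOX comparison, all genes of lists of 5 or fewer, and the 3 genes most like each member) were chosen with earlier results of these data known. AFDN and CDH1 were added after their values were seen. Some genes that the rule names are not reported here. Alternatives were DESeq2 1.42.0 or its size factors, library totals, other count filters, no robust estimation, counts divided by counts per molecule, 1 fit of all libraries, a replicate block, each library left out (for the lists only HSC3 DOX replicate 1, chosen after seeing the data), and the longest transcript as length.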

Additional observations from a re-analysis of the deposited data

Results flagged for a closer look

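The DOX response differed between HSC3 and CAL27 cells, by the interaction test in edgeR, for PVR (-0.97 on the log2 scale, HSC3 minus CAL27), NECTIN3 (-0.84) and NECTIN2 (0.44). For NECTIN4 the difference of 2.37 was not tested, since these values chose the gene. All of its DOX libraries lay below the vehicle libraries in CAL27 and above them in HSC3 cells, which is the pattern it was chosen for. Of all genes, 49.2% had no overlap of vehicle and DOX libraries in CAL27 and 38.2% in HSC3 cells.

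Among the junction genes the difference was called for CTNND1 (1.14), JUP (0.49), SRC (-0.53), RAP1B (-0.39), ACTN1 (-0.29), CDH3 (-0.27) and RAC1 (-0.23). Among the receptors that nectins bind on the same cell it was called for ERBB3 (0.91), PTPRM (0.85) and ITGAV (-0.57). The ligands of natural killer cell receptors with a called difference were RAET1G (-3.34), RAET1L (-1.51), RAET1E (-1.35), ULBP2 (-1.08) and NCR3LG1 (-0.76). Counts of RAET1G, RAET1L and RAET1E were few in HSC3 DOX libraries, which leaves the size of their differences poorly fixed. Squamous markers with a called difference were KRT14 (1.02), KRT17 (0.98), EPCAM (0.48), DSG3 (0.32) and TP63 (-0.20). All are differences of log2 fold changes at an edgeR adjusted p under 0.05, in a comparison in which 20.6% of genes were called.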

How the results depend on the processing

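Of 344 values of the relatives under an alternative, 330 kept their direction and side of the threshold, 10 passed it only there, 3 lost it and 1 changed sign. That was NECTIN2 in CAL27 cells, uncalled throughout, which ran from -0.0067 to 0.085 as each library was left out. Of 86 untested NECTIN4 values 2 moved beyond the spread of replicates. NECTIN3 in HSC3 cells was called under 7 of 15 alternatives, with adjusted p from 0.0015 to 0.19 (edgeR, or DESeq2 at 0.047). The NECTIN1 interaction was also called by DESeq2 (0.24, adjusted p = 0.047) and with counts divided by counts per molecule (0.24, edgeR adjusted p = 0.045). Under library totals NECTIN4 lay at -2.93 between the lines with vehicle and at -0.58 with DOX, and the cause was not tested. In 1 fit over all 12 libraries 5083 genes were called in CAL27 cells, against 8554, and 7167 in HSC3 cells, against 5124, and the cause was not tested. With a log2 fold change above 1 in size also required, edgeR called 0 of the 4 relatives in CAL27, 0 in HSC3, 3 between the lines with vehicle, 1 with DOX and 0 in the interaction, and 1236, 1077, 6592 (vehicle), 6831 (DOX) and 1078 of all genes. NECTIN1 ranked first per length in 4 groups by exon union and in 3 by longest transcript, and shares by longest transcript put NECTIN1 at 31.9% to 63.5%. Leaving out each library in turn, the relatives called numbered 3 to 3 in CAL27, 2 to 4 in HSC3, 4 to 4 between lines in either condition and 3 to 4 in the interaction. Vehicle and DOX samples of HSC3 cells share replicate numbers, but same-numbered libraries did not deviate together (r = -0.0253, 0.0459 and -0.00635), and with the replicate block 3 relatives and 4478 genes were called, against 3 and 5124. No paired analysis was possible for CAL27 cells or across lines because the CAL27 DOX columns carry no sample number. Depth in molecules limits NECTIN3 and NECTIN4 in HSC3 cells.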

Other observations

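NECTIN3-AS1, the antisense gene beside NECTIN3, had 9 to 43 counts in the CAL27 libraries, 105 to 179 in HSC3 vehicle and 90 to 267 in HSC3 DOX libraries. It was thus higher in the line in which NECTIN3 was lower, at mean levels of 0.274 and 1.43 CPM with vehicle against 19.4 and 2.85 CPM for NECTIN3. The pair share no exon bases in the annotation, and the relation was not tested. NECTIN1-AS1 had at most 26 counts in any library.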
